A study of Mus musculus with 9 samples.

Results

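The 9 kidney RNA libraries of the study fell into 2 classes, chosen by how much of their measured counts came from genes for cytosolic ribosomal proteins. The ribosomal share was the sum of the counts of 83 such genes over all counts of a library. Libraries below 1.5% are called low here and libraries above 2% are called high. This put all 9 libraries into a class, 4 into the low class (WT 1, WT 3, ΔPod 3 and K2A 3) and 5 into the high class (WT 2, ΔPod 1, ΔPod 2, K2A 1 and K2A 2). The low libraries held 1.14, 1.07, 1.11 and 0.975% in that order. The high libraries held 2.39, 7.77, 4.19, 3.77 and 3.84%. The library closest to the limits from below was WT 1 at 1.14%, and the closest from above was WT 2 at 2.39%. Because the classes were read off these counts, every difference between them is given as a description, also where genes past a threshold are counted. All values for single libraries are given in the 2 orders above, those of the low class first.

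Polyadenylated RNA of whole kidney had been sequenced from mice of the C57Bl/6N background at 16 weeks of age, in 3 groups of 3 libraries. The groups were wild type (WT), YBX1ΔPod (ΔPod, Ybx1 deleted from podocytes) and YBX1K2A (K2A, a Ybx1 that podocytes cannot secrete because 2 lysines in exon 7 are replaced, K299A and K302A). The labels do not name the driver of the deletion, do not say whether the wild-type mice carried a floxed allele or a Cre, and name a supplier for wild-type mice only. They give no sex, date or batch, nor do they state that each library is a separate animal, so p-values measure the spread between these samples. The classes were not spread evenly over the groups: WT held 2 low libraries and 1 high library, and ΔPod and K2A each held 1 low and 2 high. All libraries numbered 3 were low and all numbered 2 were high, whereas WT 1 was low and ΔPod 1 and K2A 1 were high. Xist, the RNA of the inactive X chromosome, was at 0 in the 3 WT libraries and at 17.0 to 331 CPM (the usual depth-scaled count, here with TMM library sizes) in the 6 mutant libraries, and the Y-linked Ddx3y was at 32.7 to 40.6 CPM in WT and at no more than 0.248 CPM in the others. Both classes therefore held libraries of both patterns.

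Cytosolic ribosomal proteins are the protein subunits of the ribosomes that translate nuclear-encoded mRNAs. Their mRNAs are among the shortest and most abundant in a cell, and many start with a C followed by an unbroken run of pyrimidines, the 5′ terminal oligopyrimidine (TOP) motif, through which nutrient and growth signals control their translation. A poly(A)-selected library reads each transcript in proportion to its amount and its length, so the counts of a kidney library are spread over abundant tubule transcripts of very different lengths.

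Start windows are shown first, because the TOP run is known from genes of the rule: 4 ribosomal protein genes with a run, Rplp0 and Rpl41 without one, and 3 of the genes with large positive differences. They were picked as examples and are not a sample of the genes. Each window holds 15 bases before and 15 bases from the RefSeq start of transcription (GRCm38.p6), on the strand of the gene. Capitals mark a run of at least 6 bases that starts with C, holds only C or T, and begins within 2 bases of the start.
Rpl27a (chr7:109519180-109519209, plus strand): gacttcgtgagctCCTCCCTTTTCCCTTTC
Rpl13a (chr7:45128731-45128760, minus strand): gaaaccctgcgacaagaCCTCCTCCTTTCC
Rpl15 (chr14:18270972-18271001, minus strand): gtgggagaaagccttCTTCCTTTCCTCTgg
Rpl35 (chr2:39005117-39005146, minus strand): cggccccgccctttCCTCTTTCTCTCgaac
Rplp0 (chr5:115559452-115559481, plus strand): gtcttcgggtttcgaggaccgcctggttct
Rpl41 (chr10:128549154-128549183, minus strand): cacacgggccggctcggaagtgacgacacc
Polr2a (chr11:69758619-69758648, minus strand): gccagttctctcctcagaagcgccgagagc
Celsr2 (chr3:108415565-108415594, minus strand): gacccgcgccccggcccgggcatgaggcgc
Zmiz1 (chr14:25459170-25459199, plus strand): ggcggcgcggggccctttggaaatagaata
Of the tested genes, 12316 had a start sequence in the RefSeq table. A run was found at 20 of 59 ribosomal protein genes (33.9%), at 765 of 12257 other genes (6.24%) and at 785 genes in all (6.37%). The search read only the strand of the gene and only the start given by RefSeq, which need not be the start used in kidney and can differ from that in GENCODE.

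Some genes with higher values in the high libraries have very short coding sequences, and examples are shown here. They were picked and are not a sample of the genes, and Rpl41 is a gene of the rule. A coding sequence is only part of a transcript: the longest transcript of Atp5e has 1697 bases. Rpl41, a protein of the large ribosomal subunit, is encoded by 78 bases including the stop codon, Atp5e, a subunit of the mitochondrial ATP synthase, by 159, and Cops9, a subunit of the COP9 signalosome, by 174. These were read from the GENCODE vM21 transcripts (mm10), with introns removed, and capitals mark the start and stop codons. The coordinates are those of the gene.
Rpl41 (chr10:128548114-128549305, minus strand): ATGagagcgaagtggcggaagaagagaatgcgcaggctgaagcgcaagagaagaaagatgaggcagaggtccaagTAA
Atp5e (chr2:174461072-174464105, minus strand): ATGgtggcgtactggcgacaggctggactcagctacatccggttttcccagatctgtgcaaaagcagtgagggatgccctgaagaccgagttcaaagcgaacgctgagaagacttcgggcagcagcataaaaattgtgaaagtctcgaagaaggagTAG
Cops9 (chr1:92637145-92641985, minus strand): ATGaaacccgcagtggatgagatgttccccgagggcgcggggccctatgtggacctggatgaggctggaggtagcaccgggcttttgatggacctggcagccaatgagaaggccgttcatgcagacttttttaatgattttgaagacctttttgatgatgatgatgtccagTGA

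The ribosomal protein genes set the classes, so their values only describe them. Of 83 symbols matched, 81 had enough counts to be fitted, and 80 of these were lower in every low library than in any high library, as were 26.1% of the other tested genes. Nothing is read from that count, since the rule used these genes. The exception, Rpl3l, a form of RPL3 known from striated muscle, overlapped. Rplp0, the stalk protein of the large subunit, was at 583, 507, 494 and 417 CPM in the low libraries and at 1265, 4571, 1895, 1939.8 and 2093 CPM in the high libraries. Its fitted difference, low minus high with genotype as a term, was -2.08 (SE 0.37) on the log2 scale. Rpl41 was at 222, 209, 173 and 145 CPM in the low libraries and at 619, 3327, 1153, 769 and 752 CPM in the high ones, a difference of -2.52 (SE 0.47). ΔPod 1 had the highest value of both genes, above the next library by more than the other 4 high libraries differed among themselves. The 2 genes did not move alike with every other member: Rps2, a protein of the small subunit, differed by -1.25 (SE 0.25) and Rpl3, a core protein of the large subunit, by -1.56 (SE 0.30), while Rpl13a and Rps24 differed by -2.71 (SE 0.53) and -2.70 (SE 0.54). The median over the 81 genes was -1.95, with -1.15 within WT, -2.52 within ΔPod and -1.97 within K2A.

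**Figure D1:**
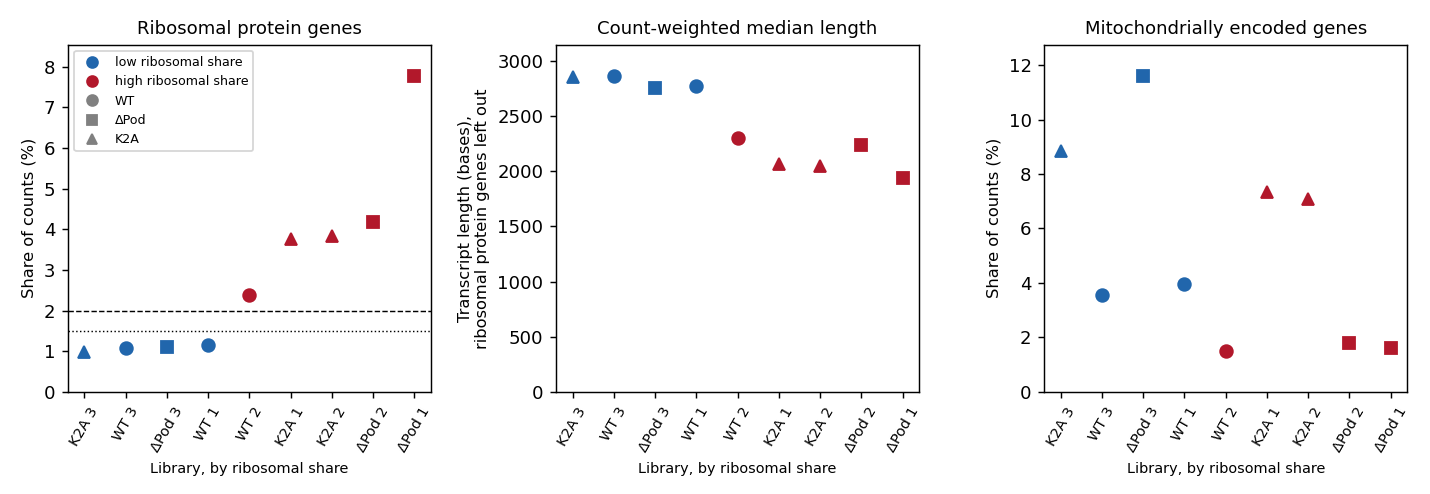
Each point is a library, ordered from the lowest to the highest ribosomal share, with colour for the class and shape for the genotype; the panels show the share of counts in ribosomal protein genes in percent (lines at the limits of 1.5 and 2%), the transcript length in bases at the middle of a library's counts, and the share of mitochondrially encoded genes in percent. The low libraries lie between 2756 and 2861 bases and the high libraries between 1938 and 2298 bases, while the mitochondrial shares of the classes overlap.

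The classes also differed across the other genes. In a principal component analysis of log2 CPM the first component held 71.5% of the variance (71.3% with ribosomal protein genes left out). The 4 low libraries lay close together on it at 91.3, 96.1, 91.7 and 96.5, although they came from 3 genotypes. The high libraries lay at 3.41, -163, -62.6, -75.6 and -77.7, so WT 2 lay nearest to the low class and ΔPod 1 farthest from it. With ribosomal protein genes left out, the median transcript length, weighted by counts, was 2770, 2861, 2756 and 2854 bases in the low libraries and 2298, 1938, 2236, 2062 and 2049 bases in the high libraries, without overlap. Transcripts over 5000 bases held 15.2 to 17.4% of the counts of the low libraries and 6.29 to 9.87% of those of the high libraries, and those under 1000 bases 5.38 to 7.06% and 11.5 to 18.1%. Processed pseudogenes, most of them copies of short and abundant mRNAs, held 0.456 to 0.597% of counts in the low class and 0.880 to 1.80% in the high class. Reads that fit both a gene and its copies cannot be assigned with certainty.

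Total counts, the denominator of the ribosomal share and therefore not tested between the classes, were 37237248, 41213085, 46852490 and 39871318 in the low libraries and 35538926, 33131610, 38565527, 30776806 and 33667193 in the high libraries. The means were 41293535 ± 4057282 counts (SD, n = 4) and 34336012 ± 2911256 counts (SD, n = 5), a difference of 6957523 counts. The classes overlapped, because ΔPod 2 in the high class had more counts than WT 1 in the low class. The number of genes with 10 or more counts overlapped between the classes, at 16650 to 17689 in the low libraries and 16896 to 17928 in the high libraries.

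Of 17986 tested genes other than ribosomal protein genes, 4807 (26.7%) were higher in every low library than in any high library and 4699 (26.1%) were lower. In the edgeR quasi-likelihood fit, 11436 genes (63.6%) passed a false discovery rate of 0.05, 5627 of them (31.3%) higher in the low class and 5809 (32.3%) lower. These shares only describe the classes, which were set on the same counts. The number past the threshold was 7459 without ΔPod 3. With upper-quartile scaling, which moved the median of all genes by -0.22, 4541 genes were higher and 6989 lower. The median difference over all genes was -0.03, with quartiles of -0.91 and 0.86, and 1859 genes differed by more than 4-fold, 986 higher and 873 lower. The difference had the same sign within all 3 genotypes for 14041 genes (78.1%). Its spread was smallest within WT, where the quartiles lay 1.1 log2 units apart, against 2.32 within ΔPod and 1.96 within K2A.

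Transcript length ordered the differences. Genes whose longest annotated transcript was at most 500 bases had a median difference of -1.29 (863 genes), and those of 500 to 1000 bases -1.26 (1469 genes). The median was -0.73 from 1000 to 2000 bases, -0.22 from 2000 to 3000, 0.21 from 3000 to 4000, 0.59 from 4000 to 5000, 1.0 from 5000 to 7000 and 1.46 from 7000 to 10000 bases. For the 350 genes over 10000 bases it was 1.76, and 313 of these were positive. Each genotype showed the same order of medians from 1000 bases upwards, and the range from the shortest to the longest bin was smallest in WT. These bins left out ribosomal protein genes. Across 17596 annotated genes, with ribosomal protein genes included, Spearman's rho of the difference with length was 0.597, and without them it was 0.595. Within the genotypes, with these genes included, rho was 0.587 in WT, 0.540 in ΔPod and 0.592 in K2A. With coding length in place of transcript length rho was 0.652 (14437 genes), and with the median length of a gene's transcripts 0.379. Genes of a library share its depth and preparation and are not independent, so no p is given.

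Base composition went with the difference among transcripts of like length. All annotated genes other than ribosomal protein genes were divided by length into 5 groups of equal size and, independently, by G+C content into 5. From 2422 to 3464 bases the median difference went from -0.66 in the group with the least G+C to 0.59 in the group with the most. From 3465 to 4847 bases it went from -0.24 to 1.19, and in the longest group, from 4848 bases, from 0.57 to 1.88. The shortest group, up to 1386 bases, stayed between -1.30 and -0.94 without such an order. Over all annotated genes, ribosomal protein genes included, rho with G+C content was 0.146. By class of transcript, the 14316 protein-coding genes had a median of 0.16, long intergenic noncoding RNAs -1.18, antisense RNAs -0.96, processed pseudogenes -0.94 and the 21 snoRNA genes -1.78. This order did not follow annotated length throughout. The 126 miRNA loci, with a median length of 76 bases the shortest class, had a median of 0.46. Past the threshold 45 were higher and 32 lower, beside 31.3% and 32.3% of all tested genes other than ribosomal protein genes. Nothing is read from these counts. Such a locus can lie inside a longer gene, as Mir5121 does, so its length need not be that of the RNA counted. Genes with and without a TOP-like run at the RefSeq start had similar medians at like length. The search found a run at only 20 of 59 ribosomal protein genes, so it can miss TOP transcripts. Whether the TOP motif goes with the difference was therefore not tested. Among transcripts of at most 1000 bases the median was -1.55 for 42 genes with a run and -1.47 for 665 without, and among those over 5000 bases it was 1.13 and 1.22, ribosomal protein genes left out.

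**Figure D2:**
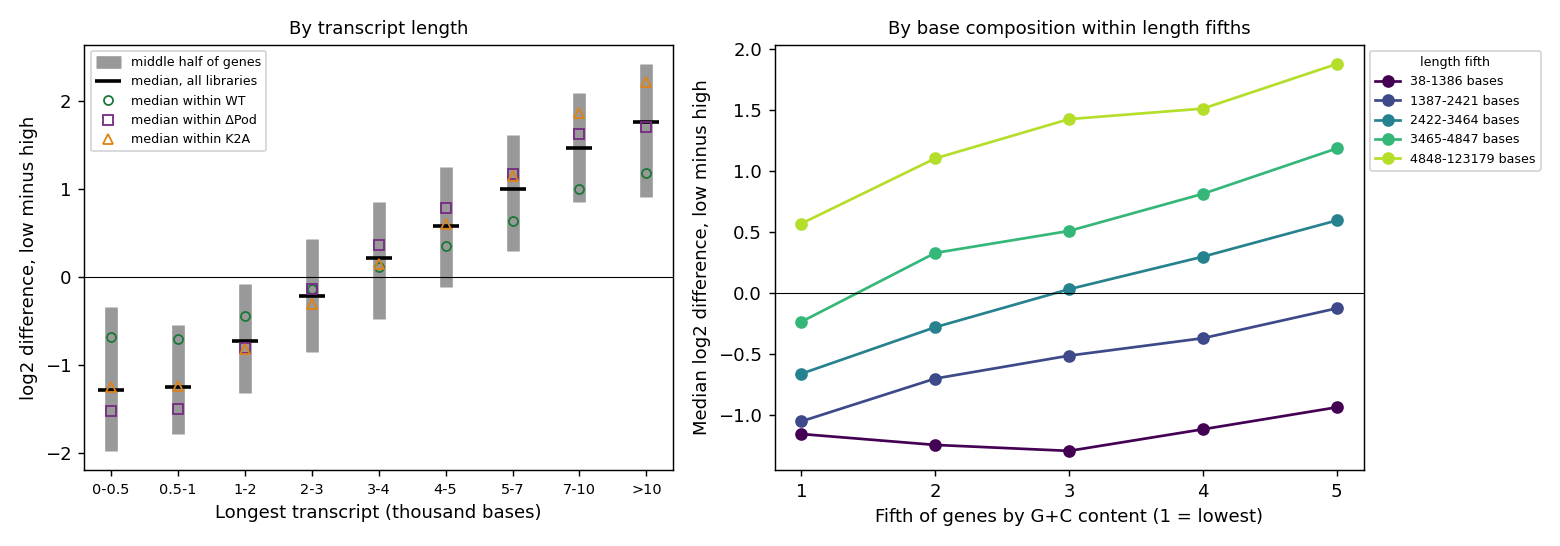
The left panel gives, for bins of the longest transcript in kb, the median log2 difference (low minus high) over all libraries, the range between the quartiles as a grey bar, and the medians within each genotype; the right panel gives the median by G+C content in each of 5 groups of length. Medians go from -1.29 in the shortest bin to 1.76 in the longest, and 4 of the 5 length groups rise with G+C content.

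Most of the genes with the largest positive differences encode very large proteins. Those named next were among the 12 with the largest differences of all genes with a mean of at least 5 log2 CPM, no overlap between the classes and the same sign in all genotypes. Celsr2, a cadherin with several membrane passes (chr3:108390851-108415552, minus strand), was at 69.3, 83.2, 97 and 87.4 CPM in the low libraries and at 9.76, 1.01, 7.2, 4.15 and 2.73 CPM in the high libraries, a difference of 4.04 (SE 0.53). Polr2a, the largest subunit of RNA polymerase II (chr11:69733997-69758637, minus strand), was at 114, 116, 118 and 149 CPM in the low libraries and at 17.9, 1.34, 9.03, 5.8 and 4.71 CPM in the high libraries. Its difference was 3.98 (SE 0.55), with 2.68 within WT, 5.05 within ΔPod and 4.82 within K2A. For both genes the low libraries lay within a narrow range across the genotypes, whereas the high libraries ran from WT 2, the highest, to ΔPod 1, the lowest. Plec, which encodes the cytoskeletal linker plectin (chr15:76170974-76232574, minus strand), was at 54.1, 59.5, 64.4 and 88.6 CPM in the low class and at 8.85, 0.615, 4.48, 4.09 and 4.06 CPM in the high class (3.90, SE 0.52). Coordinates are mm10, from GENCODE vM21. The longest transcripts of these genes have 10598, 6740 and 15455 bases. Others with a longest transcript over 7000 bases were Zmiz1 (3.79), a transcriptional coregulator, Tnrc18 (3.49), Tead1 (3.45), a DNA-binding partner of the Hippo pathway, the corepressor Rere (3.45), Arid1a (3.38), a subunit of the BAF remodelling complex, Ubr4 (3.36), a ubiquitin ligase, and Dst (3.34), the linker dystonin. Slc7a8, a transporter of neutral amino acids (chr14:54722209-54781946, minus strand) with a longest transcript of 4084 bases, was at 268, 269.9, 618 and 248 CPM in the low class and at 59.4, 9.66, 46.5, 29.7 and 33.1 CPM in the high class. ΔPod 3 was more than 2-fold above the other low libraries for Slc7a8, and the difference was 3.22 (SE 0.51).

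Counts of members without overlap are given below beside 26.7% of all tested genes that were higher and 26.1% that were lower, and medians beside -0.03. Most gene groups of long transcripts had positive medians. Of 35 giant cytoskeletal and adhesion proteins 32 were higher in every low library and 0 lower, with a median difference of 2.40. Of 36 chromatin regulators 33 were higher and 0 lower, with a median of 2.33. The members with the largest differences in that list were the histone methyltransferases Kmt2d at 3.71 (SE 0.31) and Kmt2a at 3.42 (SE 0.39). Kmt2d was at 26.7, 38.6, 55.5 and 73.4 CPM in the low libraries and at 4.92, 2.89, 3.42, 3.07 and 4.48 CPM in the high libraries. With the length trend of each library removed the medians of these lists were 0.34 and 0.83. Splicing factors of the Hnrnp and SR families were divided, 21 of 44 higher and 4 lower without overlap. The 4 lower ones were Hnrnpc (-0.74), Srsf3 (-1.27), Srsf7 (-1.54) and Srsf10 (-0.38), and the related Srrm2, a large scaffold of nuclear speckles, was higher at 3.0 (SE 0.30). KRAB and other Zfp genes, 332 in number, had a median of -0.22, with 81 higher and 99 lower.

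**Figure D3:**
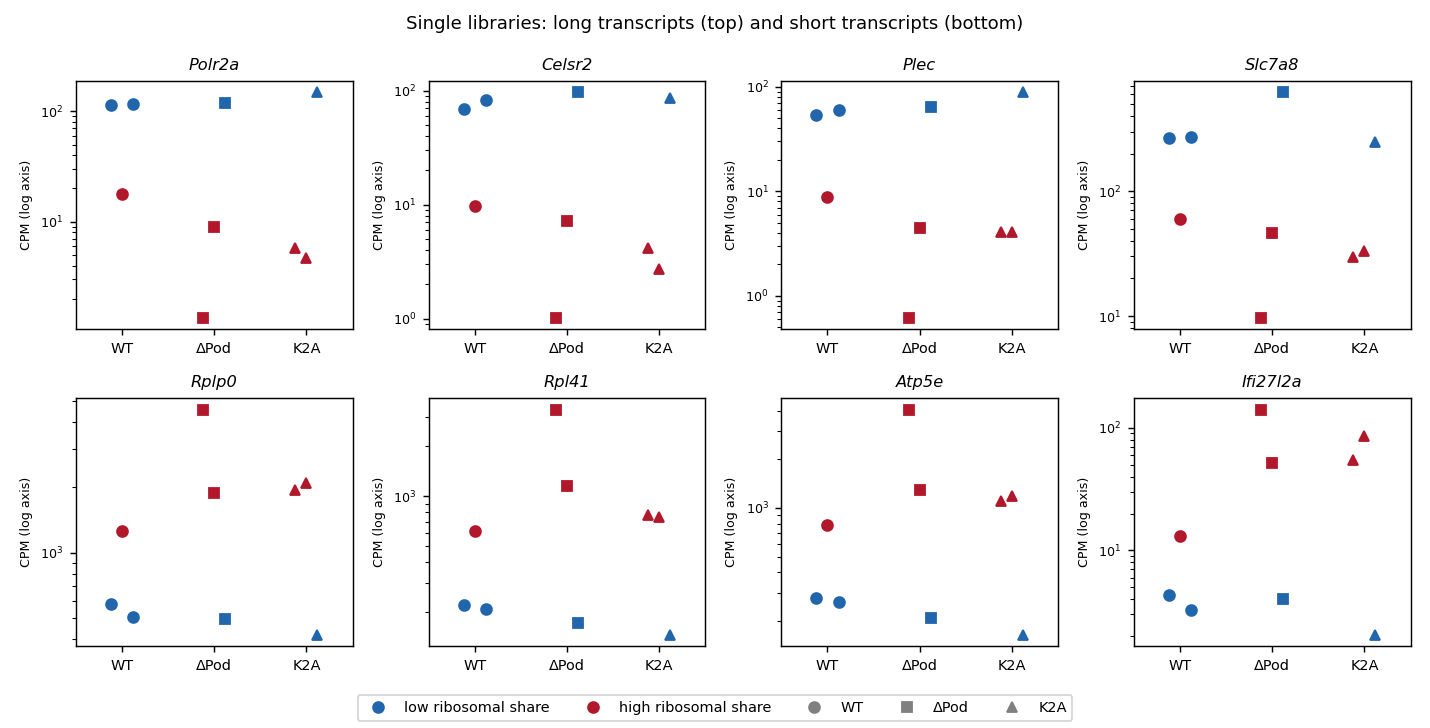
CPM on log axes in each library for 4 genes higher in the low class (top row) and 4 genes lower in it (bottom row), by genotype on the horizontal axis, with colour for the class. On these axes the low libraries span less than the high libraries, which spread from WT 2 to ΔPod 1. For Slc7a8, ΔPod 3 lies well above the other low libraries. Rplp0 and Rpl41 are genes of the rule.

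The genes lowest in the low class were mostly short. Atp5e was at 277, 260.4, 208 and 163 CPM in the low libraries and at 786, 4056, 1298, 1106 and 1185 CPM in the high libraries, a difference of -2.70 (SE 0.49). Cops9 was at 69.1, 64.7, 54.2 and 45.4 CPM in the low libraries and at 189, 1178, 373, 311 and 311 CPM in the high libraries (-2.72, SE 0.51). Both had their highest value in ΔPod 1 and their lowest high-class value in WT 2. Atp5md, another ATP synthase subunit, differed by -2.74, Immp1l, a peptidase of the inner mitochondrial membrane, by -2.77, Gng11, a G protein gamma subunit, by -2.64 and S100a6, a calcium-binding protein, by -2.75. Bc1, a short RNA of RNA polymerase III best known from neurons, differed by -2.66. The Mir5121 locus of 74 bases (chr7:45126918-45126991, minus strand) differed by -2.67, but it lies inside Rpl13a (chr7:45125558-45128761, minus strand), a gene of the rule with a difference of -2.71, so it is no separate example. Of 230 genes under 1000 bases that met the conditions for naming, 0 were higher in the low class. Of 738 such genes over 5000 bases, 671 were higher and 67 lower.

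The genes over 5000 bases with the largest negative differences were Dnajc15 (-2.36), a mitochondrial cochaperone, Pstk (-2.22), a kinase of the selenocysteine tRNA, the ATP synthase subunit Atp5l (-2.14), Churc1 (-1.97), Thap4 (-1.88) and the mitochondrial ribosomal protein Mrpl13 (-1.88). All 6 have a long isoform but shorter ones as well: the median lengths of their annotated transcripts were 674, 602, 576, 605.5, 1357 and 730 bases. Which isoforms the counts came from was not tested.

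Ifi27l2a, an interferon-induced gene (chr12:103442167-103443680, minus strand) with a longest transcript of 463 bases, had the largest negative difference among genes that met the conditions for naming. It was at 4.32, 3.24, 4.01 and 2.03 CPM in the low libraries and at 13.1, 141, 52.1, 54.9 and 85.6 CPM in the high libraries, a difference of -3.95 (SE 0.71). The difference was -1.79 within WT, -4.40 within ΔPod and -5.04 within K2A, so the WT pair differed least. Lyz2, the lysozyme of macrophages and neutrophils, was at 21.6, 14.9, 13.1 and 6.92 CPM in the low class and at 41.6, 188, 159, 109 and 67.7 CPM in the high class. Its difference was -2.96 (SE 0.53).

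Thrsp, a regulator of fatty acid synthesis in fat and liver, and Fabp4, the fatty acid-binding protein of adipocytes and of some endothelial cells, were also among the 12. Thrsp was at 2.86, 4.05, 2.36 and 5.01 CPM in the low libraries and at 7.82, 68.5, 10.8, 66.4 and 199.7 CPM in the high libraries (-3.47, SE 0.94). Fabp4 was at 35.7, 31.4, 22.6 and 40.4 CPM in the low libraries and at 79.5, 388, 134, 238 and 555 CPM in the high libraries (-2.76, SE 0.58). Of 12 tested adipocyte markers 9 had a negative and 3 a positive difference. Some of the negative ones moved with Thrsp and Fabp4 in the mutant groups. Adipoq, which encodes adiponectin, was at 0, 0.0741, 0 and 0 CPM in the low libraries and at 0, 15, 0.703, 22.2 and 58.5 CPM in the high libraries. Cfd, which encodes adipsin, was at 0.0554, 0.148, 0.0403 and 0.121 CPM in the low and 0.0573, 82.2, 3.7, 139 and 361 CPM in the high libraries. An Adipoq count of 0 allows at most 3 counts, or 0.0640 to 0.0844 CPM in the 4 libraries concerned, for counting error only. Retn, which encodes resistin, was at 0 in the 3 WT libraries and K2A 3, at 0.0202 CPM (1 count) in ΔPod 3 and at 9.08, 0.703, 13.9 and 38.4 CPM in the high mutant libraries. Within WT, where Adipoq was at 0 in WT 1 and WT 2, the difference was -1.19 for Thrsp and -1.25 for Fabp4. The summed level of the adipocyte list was 789.8 to 1333 CPM in the low class and 895.5 to 1802 CPM in the high class, and 1 of its 12 tested members, Fabp4, did not overlap. The sums of urothelium markers overlapped as well, at 0.826 to 15.6 CPM in the low and 9.33 to 84.6 CPM in the high libraries, and 0 of 9 members were without overlap. Upk3a, a uroplakin of the bladder and renal pelvis lining, was at 2.02, 0.643, 0 and 1.06 CPM in the low libraries and at 1.12, 15.5, 2.98, 14.3 and 19.9 CPM in the high libraries. The part of adipocytes or urothelium in the other differences was not tested.

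Most groups of short transcripts had negative medians. Of 75 mitochondrial ribosomal protein genes 67 were lower in every low library and 0 higher, with a median of -1.33, and Mrpl53 (-2.56) and Mrpl33 (-2.24) had the largest differences. Of 80 nuclear genes for oxidative phosphorylation 70 were lower and 2 higher, with a median of -1.51. The 2 higher genes, named after their values were seen, were Sdha (1.59, SE 0.23), the flavoprotein of succinate dehydrogenase, and Ndufs1 (0.55, SE 0.17), the largest subunit of complex I. Of 38 proteasome subunits 26 were lower and 2 higher, the large subunits Psmd2 (1.1, SE 0.20) and Psmd3 (0.50, SE 0.17). The ring subunit Psma7 differed by -2.09 (SE 0.40) and the assembly chaperone Psmd10 by -1.70 (SE 0.34). Of 22 snRNP and Lsm proteins, the small proteins around spliceosomal RNAs, 18 were lower and 0 higher, with Snrpg at -2.07 and Lsm3 at -2.02. Of 16 thymosins, metallothioneins, S100 and other small proteins 12 were lower and 0 higher. With the length trend removed, the medians of these 5 lists lay closer to 0, at -0.77, -0.51, -0.47, -0.83 and -0.26.

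Translation factors and other transcripts with a TOP motif were divided. Of 20 tested, 14 were lower in the low class and 4 higher, with a median of -1.29. Rack1, a ribosome-bound scaffold, was at 473, 424, 395 and 352 CPM in the low libraries and at 1104, 3995, 1549, 1545 and 1694 CPM in the high libraries (-2.11, SE 0.38). Eef1b2, an exchange factor for elongation, differed by -2.18 (SE 0.43) and Fau, which encodes a ribosomal protein fused to a ubiquitin-like protein, by -2.03 (SE 0.38). The 4 that were higher, named after their values were seen, were Eef2 (0.93, SE 0.31), Eif4b (0.64, SE 0.20), Pabpc1 (1.28, SE 0.28) and Hnrnpa1 (0.57, SE 0.16), all of which are known TOP transcripts. Host RNAs of snoRNAs, noncoding transcripts many of which carry a TOP motif, were lower for 12 of 17 and higher for 0, with a median of -1.76. Snhg1 was at 2.72, 3.76, 3.99 and 5.83 CPM in the low libraries and at 9.85, 78, 26.6, 17.7 and 22.4 CPM in the high libraries, and Snhg16 differed by -2.35 (SE 0.39). Of 22 ribosome biogenesis factors 8 were higher in the low class and 6 lower, shares near the 26.7% and 26.1% of all genes, with a median of 0.25. Polr1a, the largest subunit of RNA polymerase I, was higher at 2.35 (SE 0.26), as was nucleolin, Ncl, at 2.08 (SE 0.34), and Nop10, a small protein of snoRNPs, was lower at -1.70 (SE 0.29).

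**Figure D4:**
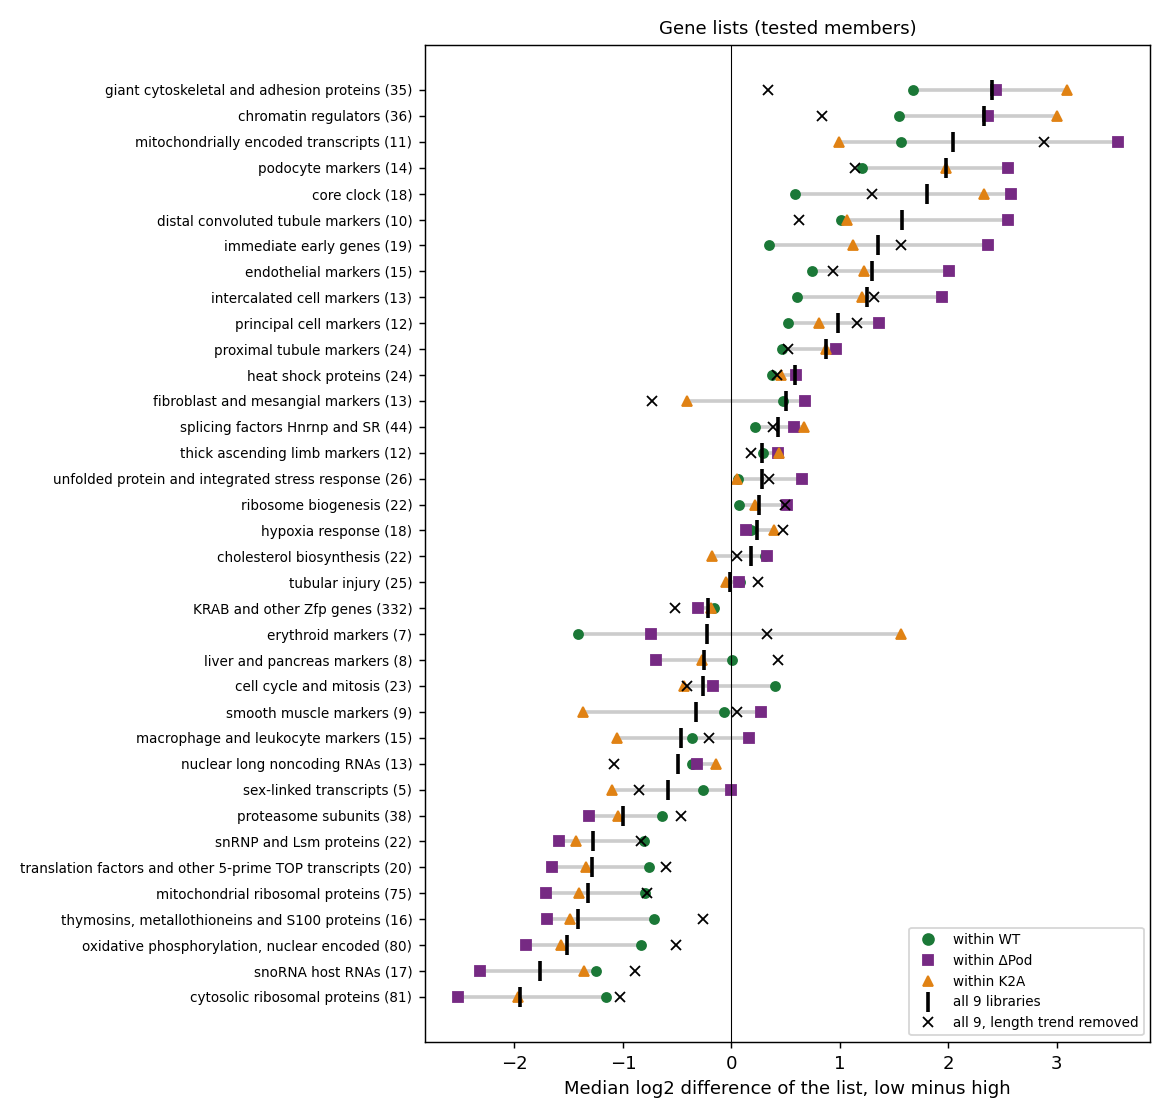
For each gene list (number of tested members in brackets), the median log2 difference, low minus high, over all 9 libraries (bar), with the length trend of each library removed (cross) and within each genotype (coloured symbols). Most lists of short transcripts lie on the left and most lists of long transcripts on the right. Exceptions are the short mitochondrially encoded transcripts at 2.04 and the long nuclear noncoding RNAs at -0.49. For the giant proteins the cross lies near 0 at 0.34. Adipocyte and urothelium markers are left out because several members had 0 to 3 counts in single libraries.

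Mitochondrially encoded transcripts had a positive median difference although most are short. Of 11 tested, 3 were higher without overlap, near the 26.7% of all genes, and 0 lower. The median was 2.04 (2.89 with the length trend removed). The share of counts in these genes was 3.97, 3.58, 11.6 and 8.83% in the low libraries and 1.5, 1.60, 1.80, 7.33 and 7.07% in the high libraries. Within each genotype the low libraries thus had the larger share, but the K2A high libraries lay above the WT low libraries. mt-Nd5, a subunit of complex I with a transcript of 1824 bases, was at 4403, 4064, 13325 and 9056 CPM in the low libraries and at 887, 602, 680.3, 1763 and 1818 CPM in the high libraries, a difference of 3.03 (SE 0.38). mt-Nd4 differed by 2.78 (SE 0.43) and mt-Cytb, the cytochrome of complex III, by 2.15 (SE 0.43). mt-Co1, the core subunit of complex IV, was at 8292, 7938, 32678 and 25676 CPM in the low libraries and at 2318, 2491, 3078, 23984 and 23622 CPM in the high libraries. Its difference was 1.81 within WT, 3.56 within ΔPod and 0.11 within K2A, so the K2A libraries barely differed. The ribosomal RNA mt-Rnr2 went the other way in K2A, with differences of -0.08 within WT, 0.21 within ΔPod and -1.20 within K2A. mt-Nd6, the only protein gene on the light strand, differed by 0.04 within WT, 1.78 within ΔPod and -1.54 within K2A. These 3 genes were chosen after their values were seen, and nuclear copies of mitochondrial DNA can share reads with all of them.

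Several clock genes set ΔPod 3 and K2A 3 apart from the low WT libraries. Each mutant group held 1 low library, so genotype and single library cannot be told apart here. Of 18 core clock genes 7 were higher in every low library and 0 lower, with a median of 1.81, but the median was 0.59 within WT against 2.58 within ΔPod and 2.33 within K2A. Dbp, an output of the clock that peaks once a day, was at 15.6, 11.9, 105 and 183 CPM in the low libraries and at 15.6, 11.1, 10.6, 25.3 and 21.5 CPM in the high libraries. Only ΔPod 3 and K2A 3 of the 9 libraries were above 26 CPM. Per2, a core repressor of the clock, was at 4.02, 9.07, 14.8 and 47 CPM in the low libraries and at 3.81, 1.16, 1.05, 2.23 and 3.5 CPM in the high libraries, and Ciart, another repressor, at 0.444, 0.346, 3.39 and 14.4 CPM in the low and 0.544, 0.145, 0.234, 0.341 and 0.919 CPM in the high libraries. Both were highest in K2A 3 and second highest in ΔPod 3. Arntl, the activator whose level runs against that of Dbp over the day and which was chosen after its values were seen, was at 21.4, 26.7, 8.48 and 2.49 CPM in the low libraries and at 14, 6, 11.3, 8.77 and 7.35 CPM in the high libraries, lowest in K2A 3. Nr1d1, which represses Arntl, was at 101, 72.1, 97.2 and 158 CPM in the low libraries and at 21.4, 2.39, 10.4, 24.8 and 18.7 CPM in the high libraries, so that all 4 low libraries were above all high ones. The labels give no time of day.

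Immediate early genes, which cells switch on within minutes of a stimulus, stood out in ΔPod 3. Of 19 tested, 6 were higher in every low library, near the 26.7% of all genes, and 0 lower. The median was 1.35, and it was 0.34 within WT, 2.36 within ΔPod and 1.13 within K2A. Fos was at 0.36, 0.0988, 48.4 and 6.07 CPM in the low libraries and at 0.258, 0.47, 0.774, 0.279 and 0.356 CPM in the high libraries. Egr1 was at 5.05, 2.99, 165 and 21.9 CPM in the low libraries and at 1.32, 0.868, 2.37, 0.465 and 1.33 CPM in the high libraries, and Zfp36, whose protein destabilizes cytokine mRNAs, at 33, 23, 245 and 51.6 CPM in the low and 11.4, 4.12, 12.6, 8.96 and 14.4 CPM in the high libraries. ΔPod 3 was the highest library for all 3 genes and K2A 3 the second highest, and for Fos the WT low libraries lay within or below the range of the high libraries. Of 24 heat shock proteins 8 were higher, also near that share, and 2 lower, with a median of 0.59. Bag3, a cochaperone of Hsp70, was higher at 2.02 (SE 0.32) and Hspe1, the small mitochondrial chaperonin, was lower at -2.12 (SE 0.39). Of 26 genes of the unfolded protein and integrated stress response 8 were higher, among them the stress sensor Ern1 at 2.12 (SE 0.30), and 4 lower, with a median of 0.28. Of 18 hypoxia genes 4 were higher and 2 lower (median 0.24), and of 23 cell cycle genes 3 were higher and 4 lower (median -0.26).

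**Figure D5:**
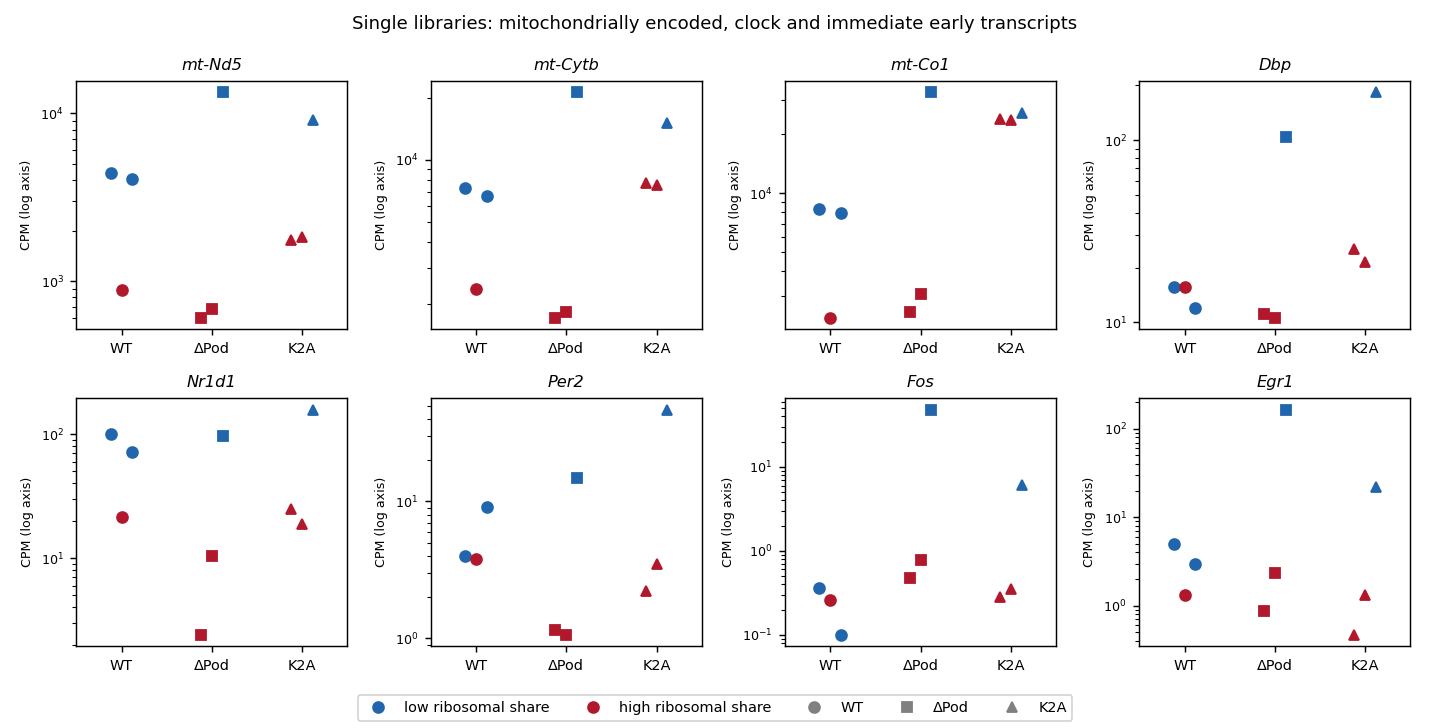
CPM on log axes in each library for 3 mitochondrially encoded, 3 clock and 2 immediate early transcripts, by genotype, with colour for the class. Within each genotype the low libraries lie above the high ones for mt-Nd5, and ΔPod 3 and K2A 3 lie above all other libraries for Dbp, Per2, Fos and Egr1.

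Long noncoding RNAs of the nucleus followed neither pattern. Malat1, a long RNA of nuclear speckles, was at 69.8, 91.8, 287 and 426 CPM in the low libraries and at 42.8, 31.2, 39, 263 and 264 CPM in the high libraries, with the WT libraries and the high ΔPod libraries below all others. Neat1, the scaffold of paraspeckles, was at 13.3, 33, 118 and 222 CPM in the low libraries and at 59.7, 81.2, 46.4, 48.1 and 42.5 CPM in the high libraries, and its difference was -1.51 within WT, 0.94 within ΔPod and 2.29 within K2A. Norad, a cytoplasmic RNA of the same list, was higher in all low libraries at 1.99 (SE 0.34). Of the 13 tested members 2, Norad and Tug1 (1.55), were higher without overlap and 1, Pvt1 (-1.51), was lower.

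Markers of kidney cell types also differed between the classes, and in whole tissue fewer cells of a type and less RNA per cell cannot be told apart. Of 14 podocyte markers 11 were higher in every low library and 0 lower, with a median of 1.98 (1.14 with the length trend removed). Their summed level was 829.6 to 1239 CPM in the low libraries and 266 to 407 CPM in the high libraries. Nphs1, which encodes nephrin of the slit diaphragm, was at 23.3, 26.5, 53.3 and 40.9 CPM in the low libraries and at 8.07, 3.83, 8.44, 9.73 and 8.33 CPM in the high libraries (2.31, SE 0.31). Col4a3, a collagen chain of the glomerular basement membrane, differed by 2.85 (SE 0.37) and Kirrel, a partner of nephrin, by 2.33 (SE 0.22). Among the members that overlapped were Cdkn1c (0.19), a cell cycle inhibitor, and the transcription factor Tcf21 (-1.07). For Nphs1 every high library, WT 2 included, lay below every low library, whatever the genotype.

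Along the nephron the members of a cell type split by transcript. Of 24 proximal tubule markers 8 were higher, near the 26.7% of all genes, and 0 lower, with a median of 0.87. Lrp2, the endocytic receptor megalin with a longest transcript of 15460 bases, was at 1583, 1549, 1451 and 1684 CPM in the low libraries and at 406, 438, 453, 189 and 181 CPM in the high libraries (2.31, SE 0.27). Cubn, its partner cubilin, differed by 2.96 (SE 0.35). Pck1, an enzyme of gluconeogenesis with a transcript of 2728 bases, was at 1095, 1699, 2567 and 11520.0 CPM in the low libraries and at 614, 250.4, 1414, 655 and 766 CPM in the high libraries, highest in K2A 3 and overlapping between the classes. In the thick ascending limb list 5 of 12 were higher and 4 lower: Egf differed by 2.49 (SE 0.31) and the kinase Wnk1 by 2.25 (SE 0.32), while the claudins Cldn10 (-1.84) and Cldn16 (-0.99), the channel Kcnj1 (-0.57) and Ppp1r1a (-1.02) were lower. Umod, the main urinary protein of that segment, was at 4727, 4120.0, 3553 and 4347 CPM in the low libraries and at 2943, 1215, 2221, 3253 and 2654 CPM in the high libraries, a difference of 0.74 (SE 0.23).

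The distal segments were also split. Of 10 distal convoluted tubule markers 6 were higher and 1 lower, with a median of 1.57. Slc12a3, the thiazide-sensitive cotransporter, was at 638, 630.3, 1202 and 1075 CPM in the low libraries and at 234, 54, 149, 139 and 154 CPM in the high libraries (2.62, SE 0.40), its regulator Wnk4 differed by 2.34 (SE 0.30), and the exception was Pvalb, the small calcium-binding parvalbumin, at -2.01 (SE 0.32). Of 12 principal cell markers 7 were higher and 2 lower, the latter Fxyd4 (-1.34) and Avpr2 (-0.89), with Scnn1a, a subunit of the epithelial sodium channel, at 2.54 (SE 0.48). Of 13 intercalated cell markers 8 were higher and 1 lower, the proton pump subunit Atp6v1g3 (-1.49), with Insrr at 2.63 (SE 0.37), Kit at 2.22 (SE 0.39) and Slc4a1, the anion exchanger, at 1.99 (SE 0.33). Of 15 endothelial markers 12 were higher and 2 lower, Egfl7 (-1.75) and Emcn (-0.47), with the receptors Flt1 and Kdr at 2.42 (SE 0.29) and 1.87 (SE 0.17). The summed levels of the thick limb, distal convoluted, intercalated and endothelial lists did not overlap between the classes, and those of the proximal tubule and principal cell lists did.

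Immune and stromal lists held members of both directions. Of 15 macrophage and leukocyte markers 6 were lower and 2 higher, with sums of 325 to 625.5 CPM in the low libraries and 638.7 to 877.5 CPM in the high libraries. The lower ones were Lyz2, H2-Aa (-0.84), H2-Ab1 (-1.21) and the complement chains C1qa (-1.26), C1qb (-1.34) and C1qc (-0.73), and the higher ones the receptor Csf1r (1.63, SE 0.42) and Itgam (0.60). Of 9 smooth muscle markers the long Myh11 (2.76), Smtn (1.98) and Mylk (1.63) were higher, and Tagln (-1.97), Cnn1 (-1.16), Myl9 (-0.72) and Actg2 (-3.01) were lower. Of 13 fibroblast and mesangial markers 4 were higher and 0 lower, with a median of 0.50 that became -0.73 with the length trend removed, so no direction is drawn from it. Col1a1, the long chain of type I collagen, was at 26.3, 30.1, 17.5 and 4.82 CPM in the low libraries and at 6.79, 2.17, 4.67, 6.14 and 3.76 CPM in the high libraries, and Lum, the small proteoglycan lumican, differed by -2.0 (SE 0.58). Among 25 tubular injury genes 2 were higher and 4 lower, with a median of -0.02. Of 8 liver and pancreas markers 2 were lower, Apoa2 (-1.27) and Cela1 (-1.27), and 0 higher. Of 7 erythroid markers 1 was higher and 1 lower, and the 2 tested adrenal markers overlapped.

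Whether the difference between the classes depended on the genotype was tested for each gene by an interaction of class and genotype. The rule did not use the interaction, but the genes tested include the ribosomal protein genes whose counts set the classes. Of 18067 genes 0 (0.0%) passed the edgeR quasi-likelihood test at a false discovery rate of 0.05, and 1497 had an unadjusted p under 0.05. With ribosomal protein genes left out 0 passed as well. The power of this test was not examined, so 0 calls do not show that the genotypes were alike. DESeq2 called 289 and limma-voom 0. With ΔPod 1 or ΔPod 2 left out edgeR called 6532 and 10752 genes, and the spread then rests on WT 1 with WT 3 and K2A 1 with K2A 2 alone. The 5 genes with the smallest p, all with an adjusted p of 0.345 in edgeR, were Tnn, mt-Tl2, Fabp1, Dbp and Apob. Fabp1, the fatty acid-binding protein of liver and proximal tubule, was at 0.333, 0.272, 3.28 and 41.3 CPM in the low libraries and at 0.258, 13.6, 13.3, 5.11 and 7.44 CPM in the high libraries, so its low library was the lowest of ΔPod and the highest of K2A. Apob, an apolipoprotein with a transcript of 13934 bases, differed by 1.32 within WT, 0.11 within ΔPod and 3.64 within K2A, and its overall difference of 1.88 was -0.0682 with the length trend removed. Tnn, a tenascin of the extracellular matrix, was at 6.54, 4.32, 0.0202 and 1.04 CPM in the low libraries and at 2.83, 8.61, 6.66, 21.9 and 17.4 CPM in the high libraries. Slc14a2, the urea transporter of the inner medulla, which was chosen after its values were seen, had 0 counts in ΔPod 3 and was at 31.6 to 138 CPM in the other 8 libraries.

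The number of genes called between genotypes depended on whether the class was a term. The class was read off the same counts and was spread unevenly over the groups. The calls made with it are therefore given as a description. With the class as a term 715 genes (3.96%) passed in ΔPod against WT, 325 higher and 390 lower, in edgeR's quasi-likelihood test. Without that term 178 genes (0.985%) passed, and all 178 were also among the 715. In K2A against WT 739 genes (4.09%) passed with the class, 340 higher and 399 lower, and 153 (0.847%) without, all of them shared. Of the 537 and 586 genes gained, 0 changed sign. Ribosomal protein genes were among those tested, and with these left out 724 and 748 genes passed with the class. Both comparisons share the WT libraries. Among the genes gained in ΔPod was Fabp1, at 5.63 (SE 1.04, adjusted p = 0.0189 in edgeR) with the class and an adjusted p of 0.0579 without it. It passed in K2A both with the class, at 5.95 (SE 0.97, adjusted p = 0.0105), and without it (adjusted p = 0.0414). WT and mutant libraries also differ in their sex-linked transcripts, so sex and genotype cannot be told apart.

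Single libraries weighed on these counts. The 715 ΔPod calls became 354 when WT 1 was dropped, 338 for WT 2, 322 for WT 3, 1166 for ΔPod 1, 433 for ΔPod 3, 421 for K2A 1 and 434 for K2A 2. The 739 K2A calls became 336 when WT 1 was dropped, 438 for WT 2, 302 for WT 3, 2185 for ΔPod 1, 308 for K2A 1, 290 for K2A 2 and 345 for K2A 3. DESeq2 called 1774 and 1677 genes. Ybx1 itself, the gene altered in podocytes, was at 1189.7, 1185, 605 and 554 CPM in the low libraries and at 1585, 1167, 881, 1078 and 1152 CPM in the high libraries. It overlapped between the classes, with a difference of -0.73 (SE 0.19), and was highest in WT 2. In ΔPod against WT it differed by -0.86 (SE 0.23, adjusted p = 0.0806) with the class and by -0.58 (adjusted p = 0.465) without it, and did not pass edgeR's test in either. The labels place the Ybx1 change in podocytes, whereas these counts come from all cells of the kidney.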

How the data were processed

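Whole-kidney polyadenylated RNA of 9 mouse samples (3 WT, 3 ΔPod, 3 K2A) was analysed from counts per gene symbol deposited by the authors. Per the labels' protocols, RNA was purified on RNeasy columns, mRNA on oligo-dT Dynabeads, and libraries were made with ScriptSeq v2. The submitters' processing notes name DESeq2 1.30.0, FastQC 0.11.9, featureCounts 2.0.1, STAR 2.7.3a, MultiQC 1.10.1, Trim Galore 0.6.3 and the build mm10, without role or order. The strand setting and annotation of the counting are not given in the sources used here. The 2 tables held 52182 and 52169 symbols. Of the 52163 shared ones, 3 with differing WT counts were left out, which left 52160 and total counts of 30776806 to 46852490 a library. No 2 libraries of a group agreed within sampling noise.

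Genes were filtered with filterByExpr (18067 kept, 17596 or 97.4% with a unique GENCODE vM21 match), scaled with TMM and fitted over all 9 libraries in edgeR 4.0.16 (R 4.3.3) with genotype and class as terms. Calls come from its quasi-likelihood test at 0.05, after Benjamini-Hochberg adjustment across every tested gene. Differences within a genotype are differences of mean log2 CPM (prior count 2). The length trend of each library was removed as lowess offsets (span 0.3) of centred log2 CPM on log2 longest transcript length. Alternatives were other scalings and filters, DESeq2 1.42.0, limma-voom (limma 3.58.1), a replicate block, a covariate in place of the class, and leaving out each library. The class and ΔPod tests were tried on simulated counts with known changes, and the interaction test on counts without any. At a log2 change of 1 the class test called 14 of 200 changed genes and the ΔPod test 0 of 200. At a log2 change of 2 they called 193 and 176 of 200, with 11 and 13 false calls. The interaction test called 0 genes, and its power to find true interactions was not examined.

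The classes, the 39 gene lists and the comparisons were chosen with earlier results of these data known. Genes were named by rule: the 12 largest differences in each direction among genes averaging 5 or more log2 CPM, without overlap between classes and with 1 sign in all genotypes, leaving out ribosomal protein, predicted and sex-linked genes; by the same conditions, up to 6 genes under 1000 bases that were higher and 6 over 5000 bases that were lower; up to 3 members of each list averaging 1 or more log2 CPM; the 5 smallest p-values of the interaction; and Rplp0, Rpl41, Rps29, Rpl3, Rps2, Malat1, Neat1, Lrp2, Umod and Ybx1. Of the genes so named, 1 is not reported here. The exceptions to a list's direction were named after their values were seen.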

Additional observations from a re-analysis of the deposited data

Results flagged for a closer look

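A library was singled out where its distance to the nearest library of its class was an unusually large share of the range of that class (0.829 for 4 libraries, 0.710 for 5). This held for 44 of 222 gene and class combinations examined. Chance gives about 1 in 20, and the genes are not independent.

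In the high class ΔPod 1 stood apart for 30 genes. It lay far above the other high libraries for the ribosomal protein genes Rplp0 (4571 CPM), Rpl41 (3327), Rpl13a (3861) and Rps24 (2883). It did so for the mitochondrial proteins Immp1l (243 CPM), Atp5md (2686), Atp5e (4056), Atp5l (307), Dnajc15 (713), Mrpl13 (331), Mrpl53 (325), Mrpl33 (234) and Hspe1 (1075). The translation genes Eef1b2 (2328 CPM), Rack1 (3995) and Fau (1022) and the noncoding Snhg1 (78.0), Snhg16 (65.6) and Bc1 (235) were likewise highest there. The same held for the proteasome genes Psma7 (1156 CPM) and Psmd10 (148), for Snrpg (80.6) and Lsm3 (97.3), and for Cops9 (1178), Gng11 (259.9), Pstk (128), Churc1 (194), Thap4 (771) and the Mir5121 locus (376). ΔPod 1 was far below the other high libraries for the podocyte gene Nphs1 (3.83 CPM).

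In the low class ΔPod 3 stood above the others for Tnrc18 (123 CPM), Slc7a8 (618), Fos (48.4), Egr1 (165), Zfp36 (245), Insrr (46.4) and mt-Tl2 (1.27), and below them for Psma7 (90.4). K2A 3 stood above the others for Polr2a (149 CPM), Ubr4 (147), Pck1 (11520) and Fabp1 (41.3). Adipoq was detected in the low class in WT 3 alone (0.0741 CPM) and Retn in ΔPod 3 alone (0.0202 CPM), which is 3 counts and 1 count.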

How the results depend on the processing

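The number of genes past the threshold between the classes stayed within 1.5 times under every scaling, filter and tool tried; leaving out 1 library gave 7459 (without ΔPod 3) to 11977, and a replicate block gave 0 (6219 at an unadjusted p under 0.05). Same-numbered libraries did not deviate together in all pairs (WT 1 against ΔPod 1 at r = -0.62, WT 1 against K2A 1 at -0.54), but these values follow the classes, so whether the numbers mark a shared preparation cannot be told apart from the class. With the replicate block the ΔPod, K2A and interaction counts were 330, 331 and 76. Without a filter they were 2072, 1742 and 956, and in DESeq2 1774, 1677 and 289. With the log2 ribosomal share as a covariate ΔPod and K2A gave 2593 and 2956, without the class 178 and 153. Leaving out 1 library gave 322 to 1166 for ΔPod, 290 to 2185 for K2A and 0 to 10752 for the interaction. The cause was not tested. The rho with length was 0.379 for median transcript length and 0.652 for coding length. The difference in total counts ran from 5104538 to 8309619 with 1 library left out. Genes without overlap between the classes numbered 9506, and 9653 to 11504 with 1 library left out, an alternative chosen after seeing the data.

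Of 106 genes followed over 14 settings 1 reversed, Apob with the length trend removed (-0.0682), and of 39 lists 1 with a median of 0.5 or more did, fibroblast and mesangial markers (-0.73). With that trend removed, 42 of the genes and 21 of the lists moved by more than the spread between genotypes. Over all 14 settings the results that moved so numbered 42 for genes and 37 for lists. Some lists therefore moved under other settings too. The cholesterol and adrenal medians, both near 0, changed sign with upper-quartile scaling, and that of tubular injury with library size alone. Depth limits Adipoq, Retn and Tnn, which had 0 to 3 counts in single low libraries.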
